A study of Mus musculus with 10 samples.

Results

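The genes described here are 46 genes of mitosis and cytokinesis, followed in ASZ001 cells, a murine basal cell carcinoma (BCC) line, after 24 h with an inhibitor of AP-1 or of TGFß signaling. They were chosen by gene symbol, as named proteins of the spindle, the kinetochore, the spindle checkpoint, mitotic entry and exit and cytokinesis, and each fell into 1 of 10 roles. All 46 were found among the 17658 genes of the SB431542 experiment and the 16719 genes of the T-5224 experiment, and all 46 had a mean of at least 1 RPKM (reads per kilobase of transcript, scaled to the depth of the library) in each, the level from which genes were tested (10842 and 10809 genes). Cells of all groups were grown in medium with 2% serum and treated in medium with 0.2% serum, both with 0.05 mM calcium chloride. RNA-seq was done after vehicle (DMSO, 3 libraries) or 10 µM SB431542 (3 libraries), which blocks the TGFß receptor kinase ALK5. A separate experiment had DMSO (2 libraries) or 20 µM T-5224 (2 libraries), which blocks AP-1. All groups were the same single line, which the study describes as resistant to SMO inhibitors, and each inhibitor had its own DMSO controls. Depth, read from the steps between low values, was about 31800000 to 51300000 reads per library.

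When a cell enters mitosis, CDK1 bound to cyclin B is switched on by CDC25 phosphatases, chromosomes condense, and a spindle of microtubules is built by motor proteins and by the Polo-like and Aurora kinases. Kinetochores, assembled on centromeric chromatin, attach chromosomes to the spindle, and the spindle checkpoint holds back the anaphase-promoting complex (APC/C), a ubiquitin ligase, until all are attached. The APC/C with CDC20 then destroys securin and cyclin B, the chromosomes part, and the central spindle and a contractile ring divide the cell. Most of these proteins are made anew in each cycle: their genes are transcribed mainly in G2 and M phase, under B-MYB and FOXM1 acting with the MuvB complex at CHR elements and NF-Y at CCAAT boxes, and are repressed in resting cells. For that reason their mRNAs are widely read as a measure of proliferation. Hair follicle matrix and basal epidermis, to which BCC is related, hold many dividing cells.

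Promoters were read because these elements are shared by genes of this class and because 1 inhibitor acts on a transcription factor. Of the 46 genes, 38 had an entry in the RefSeq promoter table (build GRCm38.p6; 250 bases before to 50 after each start), with 41 promoters, and Spc24, Kif20a, Tpx2, Aurkb, Ccna2, Foxm1, Incenp and Cdc25c had none there. The motifs searched on both strands were the CCAAT box (CCAAT), the CHR (TTTGAA), a CHR variant (TTTAAA) and the AP-1 site (TGANTCA), and none of them contains another. The CCAAT box was present in 30 of the 41 promoters (73.2%) and in 37.4% of all 32851 promoters of the table. The CHR was present in 29 (70.7%), against 17.9% of all promoters, and the variant in 10 (24.4%), against 13.2%. CCAAT box and CHR stood in the same promoter for 25 of the 41 (61.0%), against 6.95% of all promoters. Ect2, Prc1 and Bub3 had repeated entries with overlapping windows, so the same sites were counted again. Counted by gene, the CCAAT box was present in 27 of 38, the CHR in 26 and both in 22. The AP-1 letters were in 0 of the 41 and in 7.81% of all promoters, which says only that these letters are not in this window.

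**Figure D1:**
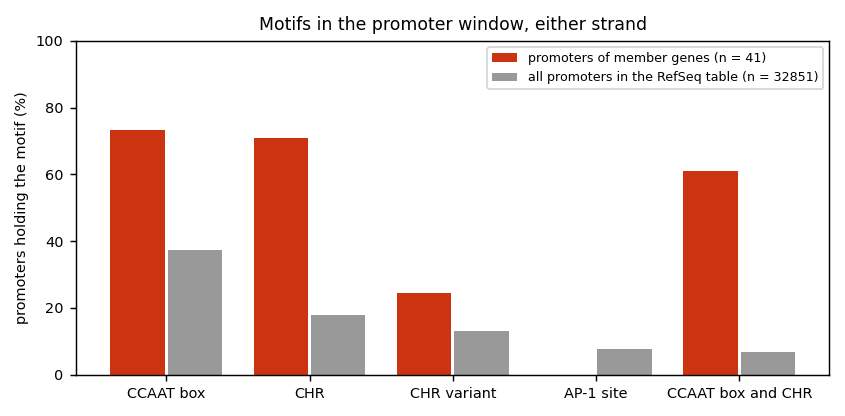
Share of promoters holding each motif on either strand (vertical axis, %), for the 41 promoters of the mitosis and cytokinesis genes (red) and all 32851 promoters of the RefSeq table (grey). The CCAAT box and the CHR are in 73.2% and 70.7% of the red set, and the AP-1 site is in none of it.

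The stretch before the start (150 bases, 149 for Ube2c, written 5′ to 3′ on the gene's strand, CCAAT boxes and CHRs in capitals on whichever strand they lie) is shown for genes with the largest rise with T-5224, described below. Stretches with more than 30 bases in an annotated exon were shortened at their end, and genes left with fewer than 120 bases were passed over. Each was found exactly 1 time in mm9, at Ube2c chr2:164595279-164595427 (plus strand), Mybl2 chr2:162880221-162880370 (plus strand), Cdc20 chr4:118109949-118110098 (minus strand), Ect2 chr3:27052801-27052950 (minus strand), Nek2 chr1:193645202-193645351 (plus strand).
Ube2c: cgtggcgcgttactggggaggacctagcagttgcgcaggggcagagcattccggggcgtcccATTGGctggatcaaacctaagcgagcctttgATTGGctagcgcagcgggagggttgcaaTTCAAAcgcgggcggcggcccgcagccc
Mybl2: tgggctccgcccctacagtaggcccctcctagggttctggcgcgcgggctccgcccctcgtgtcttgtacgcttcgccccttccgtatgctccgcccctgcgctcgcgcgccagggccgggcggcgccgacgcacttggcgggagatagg
Cdc20: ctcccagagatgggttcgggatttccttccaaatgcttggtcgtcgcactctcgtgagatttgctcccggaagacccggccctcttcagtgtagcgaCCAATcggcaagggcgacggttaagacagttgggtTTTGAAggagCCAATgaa
Ect2: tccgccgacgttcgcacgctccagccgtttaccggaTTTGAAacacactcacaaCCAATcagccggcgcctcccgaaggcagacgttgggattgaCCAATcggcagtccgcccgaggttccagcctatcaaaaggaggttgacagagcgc
Nek2: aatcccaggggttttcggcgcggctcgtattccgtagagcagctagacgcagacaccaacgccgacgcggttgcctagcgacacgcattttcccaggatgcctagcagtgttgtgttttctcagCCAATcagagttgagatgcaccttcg

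For contrast, the same stretch is shown for genes with the smallest rise, found in mm9 at Kif20b chr19:34996698-34996847 (plus strand), Mki67 chr7:142908063-142908212 (minus strand), Cenpf chr1:191511966-191512115 (minus strand), Cdc25b chr2:131012534-131012683 (plus strand), Bub3 chr7:138703734-138703883 (plus strand).
Kif20b: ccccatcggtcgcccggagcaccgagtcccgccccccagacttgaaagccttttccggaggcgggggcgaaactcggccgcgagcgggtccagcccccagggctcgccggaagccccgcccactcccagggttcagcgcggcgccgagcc
Mki67: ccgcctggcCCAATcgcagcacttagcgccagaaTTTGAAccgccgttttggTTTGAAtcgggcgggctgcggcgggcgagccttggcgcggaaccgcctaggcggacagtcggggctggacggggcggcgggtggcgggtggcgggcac
Cenpf: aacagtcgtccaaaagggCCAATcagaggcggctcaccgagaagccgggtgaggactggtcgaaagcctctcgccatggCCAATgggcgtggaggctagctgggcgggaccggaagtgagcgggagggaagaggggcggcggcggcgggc
Cdc25b: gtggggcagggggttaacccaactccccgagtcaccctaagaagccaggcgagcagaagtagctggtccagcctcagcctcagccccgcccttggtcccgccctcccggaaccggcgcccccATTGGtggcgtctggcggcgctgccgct
Bub3: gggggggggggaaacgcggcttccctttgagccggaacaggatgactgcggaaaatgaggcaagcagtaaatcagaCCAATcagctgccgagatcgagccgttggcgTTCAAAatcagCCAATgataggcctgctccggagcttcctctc

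Genes of both sets held these letters. In the stretches printed above, Ube2c and Cdc20 hold 2 CCAAT boxes and 1 CHR each, and Mybl2 holds neither among the large rises. In those of the small rises, Bub3 holds 2 CCAAT boxes and 1 CHR, Mki67 1 CCAAT box and 2 CHRs, and Kif20b neither. Over the whole window of the table, which also takes in bases not printed, CHRs were present in 17 of 24 that rose more than 2-fold with T-5224 and in 9 of 14 that did not, Kif20b being counted as holding one, and both elements together in 14 of 24 and in 8 of 14.

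With the AP-1 inhibitor, all 46 genes were higher than with DMSO. Every T-5224 library was above every DMSO library for 46 of 46 genes, which held for 45.1% of all genes tested. At an adjusted p under 0.05 (limma on log2(RPKM + 0.5), Benjamini-Hochberg over all genes tested) 46 of 46 rose and 0 fell, where 40.3% of all genes rose and 39.4% fell. Past 2-fold as well, 30 of 46 rose and 0 fell, where 10.4% of all genes rose and 10.6% fell. The median log2 fold change over the 46 genes was 1.08, and over all genes tested it was 0.003. The genes differed widely in size of response, from 0.21 for Bub3 to 1.91 for Ube2c. The median over the 46 genes lay between 1.02 and 1.15 when any 1 of the 4 libraries was left out. Since these are bulk cultures, more cells in G2 and M phase and more of these mRNAs per cell cannot be told apart.

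With the ALK5 inhibitor the same genes moved less, from DMSO levels that were higher in this experiment for all 46. The median log2 difference of the T-5224 from the SB431542 experiment's DMSO libraries, normalized separately, was −2.30 over the 46 genes and 0.01 over all. The sizes of the 2 responses were not tested against each other. The log2 fold change was above 0 for 45 of 46 and its median was 0.25, against 0.01 for all genes tested. Every SB431542 library was above every DMSO library for 36 genes, which held for 23.9% of all genes. At an adjusted p under 0.05, 25 of 46 rose and 0 fell, where 10.2% of all genes rose and 10.0% fell. Past 2-fold there were 0 in either direction, where 0.231% of all genes rose and 0.581% fell. The count of 25 rested on which libraries were in the fit. It was 43 without DMSO replicate 1, where 19.9% of all genes rose, and 15 without DMSO replicate 2, where 5.96% did. Without SB431542 replicates 1, 2 and 3 it was 8, 8 and 7, where 3.29%, 2.76% and 2.83% of all genes rose, and the median log2 fold change over the 46 genes stayed between 0.24 and 0.28 in all of these fits.

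DMSO replicate 1 of the SB431542 experiment stood apart from its 2 partners. It was above both for 27 of the 46 genes and below both for 13, where 38.9% of all genes tested were above both and 47.9% below both. The ribosomal RNA transcript Rn45s was at 770 RPKM in it, at 2101 and 2155 RPKM in the others and at 1868 to 2229 RPKM with SB431542. Without this library the log2 fold change of 12 of the 46 genes with SB431542 moved by more than 1.5 times or changed sign. It became smaller for Cdc25b (0.12), Cdc25c (0.091), Pttg1 (0.12) and Aurkb (0.27), and larger for Tpx2 (0.22), Hmmr (0.31), Cenpe (0.29), Cenpf (0.30), Incenp (0.31), Mki67 (0.34) and Kif20b (0.30), and Ndc80 changed sign (0.034). None of the 12 rose at the adjusted p with all libraries, and each of them except Cdc25c and Ndc80 did so without this one. Hmmr, Cenpe, Cenpf, Ndc80, Incenp, Mki67 and Kif20b also moved past that limit when some other library was left out. Mki67 was at 0.072 without DMSO replicate 2, 0.058 without DMSO replicate 3 and 0.081 without SB431542 replicate 3. In the T-5224 experiment Rn45s was at 3401 and 3473 RPKM with DMSO and at 1862 and 5184 RPKM with T-5224, while the 46 genes summed to 1185 and 1151 RPKM in those T-5224 libraries. No gene of the 46 moved by more than 1.5 times with T-5224 when 1 library was left out. The part of Rn45s in the results was not tested.

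**Figure D2:**
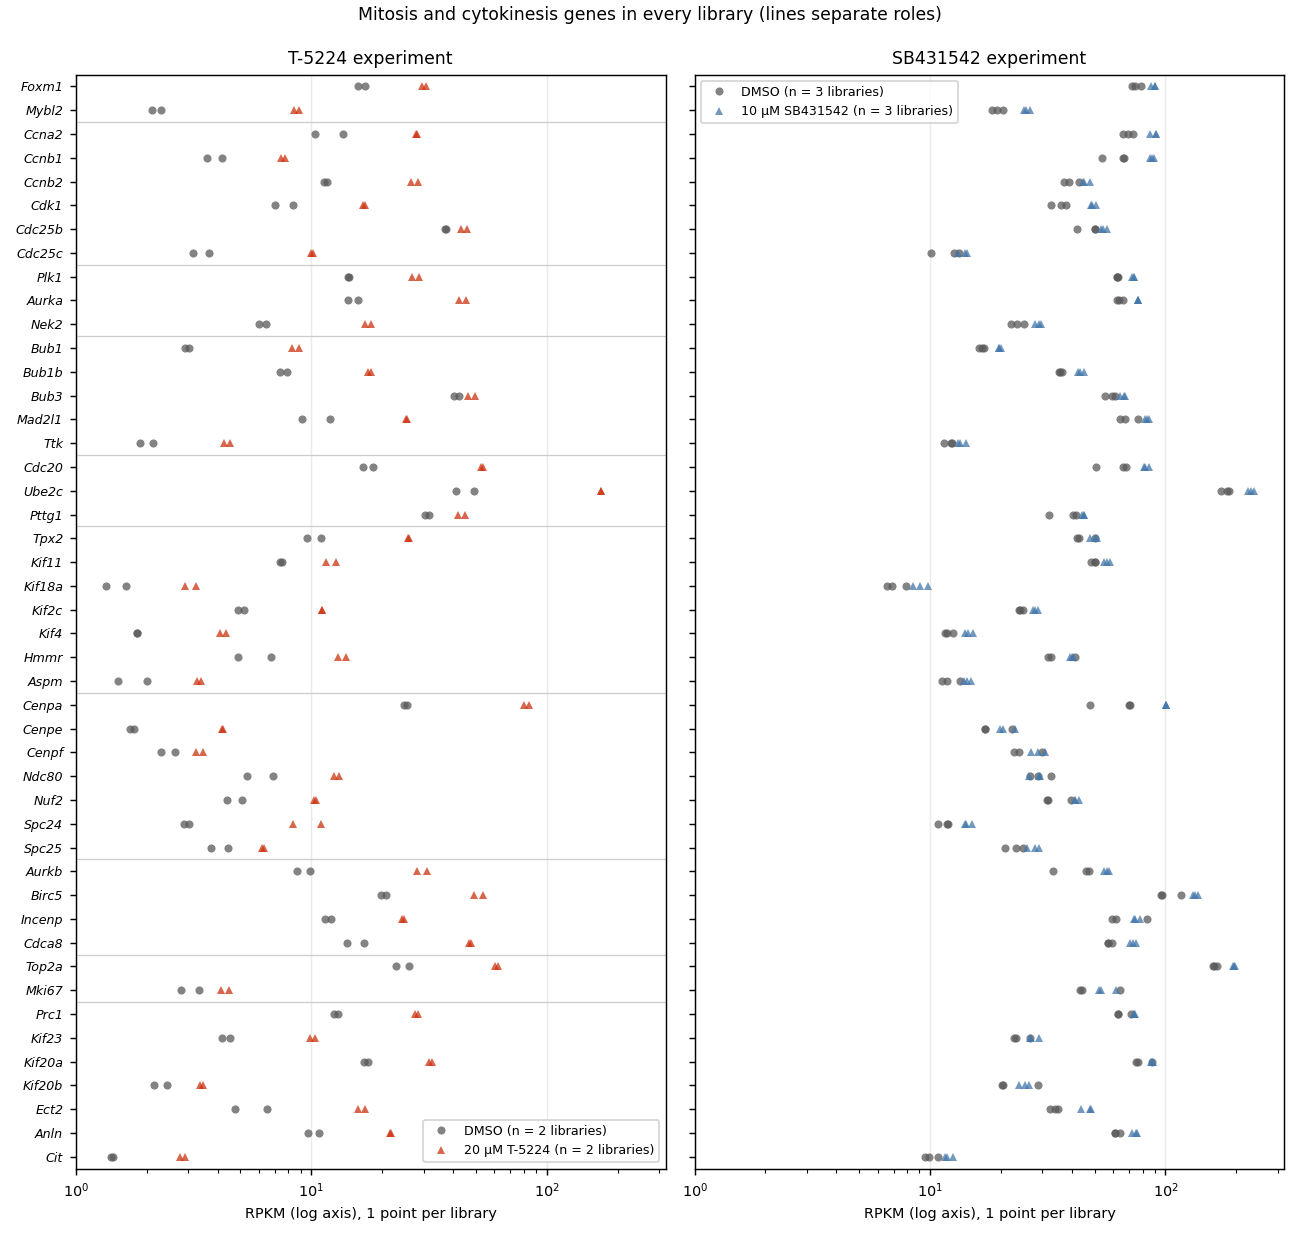
RPKM (horizontal log axis) of each gene in every library, 1 point per library, for the T-5224 experiment (left: 2 DMSO, 2 T-5224) and the SB431542 experiment (right: 3 DMSO, 3 SB431542), with grey lines between roles. On the left both triangles lie above both circles for all 46 genes, and on the right all 3 triangles lie above all 3 circles for 36.

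The transcriptional regulators of this program, Foxm1, a forkhead factor, and Mybl2, which encodes B-MYB, rose with both inhibitors. Foxm1 was at 16.8 and 15.8 RPKM with DMSO and at 30.7 and 29.6 RPKM with T-5224, a log2 fold change of 0.87 (SE 0.06, adjusted p = 1.65e-07, limma). Mybl2 was at 2.11 and 2.30 RPKM with DMSO and at 8.85 and 8.45 RPKM with T-5224, a log2 fold change of 1.76 (SE 0.09, adjusted p = 9.36e-09, limma). That rise of Mybl2 was the second in size among the 46. In the SB431542 experiment Foxm1 was at 78.8, 73.9 and 72.0 RPKM with DMSO and 86.6, 90.0 and 90.2 RPKM with the inhibitor (log2 fold change 0.25, SE 0.05, adjusted p = 0.0196, limma). Mybl2 went from 18.39, 19.29 and 20.45 RPKM to 25.49, 25.04 and 26.64 RPKM (0.40, SE 0.06, adjusted p = 0.00500, limma). The groups did not overlap for either gene in either experiment.

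Of the 6 cyclins, CDK1 and CDC25 phosphatases, 4 passed 2-fold with T-5224 and 3 rose at the adjusted p with SB431542. Ccna2, cyclin A2 of S and G2 phase, was at 13.7 and 10.4 RPKM with DMSO and 28.2 and 28.0 RPKM with T-5224 (log2 fold change 1.20, SE 0.10, adjusted p = 6.15e-07, limma). Cdk1, the kinase that drives entry into mitosis, was at 8.37 and 6.99 RPKM and then at 16.6 and 17.0 RPKM (1.08, SE 0.09, adjusted p = 3.48e-07, limma). Its partner Ccnb1, cyclin B1, rose from 4.18 and 3.61 RPKM to 7.45 and 7.73 RPKM, just short of 2-fold (0.88, SE 0.09). The 2 phosphatases lay at opposite ends of this role. Cdc25c had a log2 fold change of 1.44 (SE 0.09), whereas Cdc25b, at 37.4 and 37.0 RPKM with DMSO, reached only 45.7 and 43.2 RPKM (0.25, SE 0.06, adjusted p = 0.00158, limma). With SB431542, Ccnb1 and Cdk1 were among the 3 largest rises. Ccnb1 was at 53.9, 66.2 and 66.7 RPKM with DMSO and at 88.0, 86.3 and 89.4 RPKM with SB431542 (log2 fold change 0.50, SE 0.09, adjusted p = 0.00862, limma). Cdk1 was at 32.6, 36.1 and 37.8 RPKM and then at 48.5, 48.9 and 50.4 RPKM (0.47, SE 0.06, adjusted p = 0.00380, limma). Ccna2 went from 72.6, 69.4 and 66.3 RPKM to 91.0, 86.3 and 90.9 RPKM (0.36, SE 0.05, adjusted p = 0.00542, limma). For these 3 the groups did not overlap, while the libraries for Cdc25c did (0.21, adjusted p = 0.191, limma).

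The 3 genes grouped as Polo-like, Aurora A and NIMA-related kinases, Plk1, Aurka and Nek2, rose with both inhibitors. Plk1, which acts from centrosome maturation to cytokinesis, was at 14.4 RPKM in both DMSO libraries and at 28.6 and 26.8 RPKM with T-5224 (log2 fold change 0.92, SE 0.06, adjusted p = 1.03e-07, limma), outside the 2-fold limit. Aurka, the kinase of the spindle poles, and Nek2, which separates centrosomes, were past it at 1.51 (SE 0.07) and 1.42 (SE 0.07). With SB431542 Plk1 went from 62.6, 62.4 and 62.3 RPKM to 73.8, 72.2 and 73.2 RPKM (0.22, SE 0.04, adjusted p = 0.0140, limma). The spread within each group was small for this gene, and Aurka and Nek2 had log2 fold changes of 0.26 and 0.29.

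Among the 5 spindle checkpoint genes, 3 passed 2-fold with T-5224 and 3 rose at the adjusted p with SB431542. Bub1, a kinase that recruits the other checkpoint proteins to kinetochores, was at 2.92 and 3.02 RPKM with DMSO and 8.26 and 8.84 RPKM with T-5224 (log2 fold change 1.38, SE 0.09, adjusted p = 4.74e-08, limma). Mad2l1, which encodes MAD2, and Bub1b, which encodes BUBR1, followed at 1.25 and 1.16, and Ttk, the MPS1 kinase, was at 0.97. Bub3, whose protein carries BUB1 and BUBR1 to the kinetochore, was the smallest rise of all 46. It was at 42.4 and 40.3 RPKM with DMSO and at 49.4 and 46.3 RPKM with T-5224 (0.21, SE 0.06, adjusted p = 0.00657, limma), and its call was lost without T-5224 replicate 1 (0.16, adjusted p = 0.074, limma) and under quantile normalization (0.098, adjusted p = 0.075, limma). With SB431542 Bub1 went from 16.2, 16.9 and 16.5 RPKM to 20.0, 19.6 and 19.6 RPKM (0.25, SE 0.05, adjusted p = 0.0138, limma), and Bub3 had a log2 fold change of 0.17 (adjusted p = 0.0663, limma).

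The 2 partners of the APC/C were among the 5 largest rises with T-5224. Ube2c, the E2 enzyme that starts ubiquitin chains on APC/C targets, was at 49.2 and 41.3 RPKM with DMSO and at 171 and 170.0 RPKM with T-5224, a log2 fold change of 1.91 (SE 0.07, adjusted p = 7.60e-10, limma). Cdc20, the activator that the checkpoint holds back, was at 18.2 and 16.6 RPKM and then at 52.4 and 53.7 RPKM (1.58, SE 0.06, adjusted p = 1.12e-09, limma). Pttg1, which encodes securin, an APC/C target, moved less, with a log2 fold change of 0.48 (SE 0.06). With SB431542 Cdc20 was at 82.0, 81.0 and 85.0 RPKM against 50.7, 66.1 and 68.2 RPKM with DMSO (0.43, SE 0.11, adjusted p = 0.0315, limma), the lowest value being that of DMSO replicate 1. Ube2c rose by 0.35 (SE 0.05, adjusted p = 0.00595, limma), and Pttg1 had 0.24 (adjusted p = 0.122, limma) with no overlap between groups. Without DMSO replicate 1, at 31.9 RPKM against 41.6 and 40.3 RPKM in its partners, Pttg1 had 0.12 (adjusted p = 0.0271, limma).

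Of the 7 spindle motors and spindle proteins, 4 passed 2-fold with T-5224 and 4 rose at the adjusted p with SB431542. Tpx2, which activates Aurora A on spindle microtubules, was at 10.9 and 9.62 RPKM with DMSO and at 26.0 and 25.8 RPKM with T-5224 (log2 fold change 1.29, SE 0.07, adjusted p = 2.04e-08, limma). The spindle protein Hmmr (1.17), the microtubule-depolymerizing kinesin Kif2c (1.07) and the chromokinesin Kif4 (1.03) were the others past 2-fold. Kif18a (0.85), the spindle pole protein Aspm (0.78) and Kif11 (0.66), the kinesin that pushes spindle poles apart, were below it. The order was another with SB431542, where Kif18a had the largest log2 fold change of this role (0.33) and Tpx2 the smallest. Tpx2 was at 50.1, 42.1 and 42.8 RPKM with DMSO and at 50.2, 47.7 and 51.0 RPKM with SB431542 (0.14, SE 0.08, adjusted p = 0.214, limma), and the groups overlapped through DMSO replicate 1.

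The 7 centromere and kinetochore genes covered nearly the whole range of responses. Cenpa, the histone H3 variant that marks centromeres, was at 25.6 and 24.7 RPKM with DMSO and at 83.9 and 80.3 RPKM with T-5224 (log2 fold change 1.69, SE 0.06, adjusted p = 2.32e-10, limma). It was also the largest rise with SB431542, from 47.6, 70.7 and 70.0 RPKM to 101, 100.1 and 101 RPKM (0.70, SE 0.14, adjusted p = 0.0163, limma), again with DMSO replicate 1 the lowest library. Without that library the value was 0.51. Cenpf, a large kinetochore protein, was near the other end with T-5224, at 2.30 and 2.64 RPKM with DMSO and 3.23 and 3.46 RPKM with the inhibitor (0.38, SE 0.11, adjusted p = 0.00671, limma), and its call was lost without T-5224 replicate 2 (0.33, adjusted p = 0.068, limma). The motor protein gene Cenpe was at 1.08.

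The 4 subunits of the NDC80 complex, which binds microtubules at the kinetochore, did not move as 1 unit. With T-5224 the log2 fold changes were 1.54 for Spc24, 1.06 for Nuf2, 1.02 for Ndc80 and 0.56 for Spc25. With SB431542 Spc24 rose by 0.32 (adjusted p = 0.0138, limma), and Nuf2 had 0.29 and Spc25 0.26, at adjusted p-values of 0.0666 and 0.0537 (limma). Ndc80 was the only gene of the 46 with a value below 0. It was at 32.6, 26.5 and 28.7 RPKM with DMSO and at 29.0, 26.4 and 29.4 RPKM with SB431542, so the groups overlapped (−0.05, SE 0.08, adjusted p = 0.734, limma), and the sign turned without DMSO replicate 1 (0.034) or without SB431542 replicate 2 (0.0032).

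The chromosomal passenger complex, which corrects faulty attachments and then moves to the central spindle, was the only role in which every gene passed 2-fold with T-5224. Aurkb, its kinase, was at 9.85 and 8.73 RPKM with DMSO and at 31.0 and 28.2 RPKM with T-5224 (log2 fold change 1.62, SE 0.08, adjusted p = 4.70e-09, limma). Cdca8, which encodes borealin, followed at 1.58, Birc5, which encodes survivin, at 1.32, and the scaffold gene Incenp at 1.04. Incenp was close to the limit, between 0.99 and 1.08 when 1 library was left out. With SB431542 Cdca8 (0.34) and Birc5 (0.38) rose at the adjusted p. Aurkb went from 33.3, 46.1 and 47.3 RPKM to 57.7, 56.4 and 54.9 RPKM without overlap (0.43, SE 0.13, adjusted p = 0.0506, limma), and without DMSO replicate 1, the lowest library, the value was 0.27 (adjusted p = 0.000927, limma). Incenp had a log2 fold change of 0.16 (adjusted p = 0.394, limma), with 83.5 RPKM in DMSO replicate 1 and 59.0 and 61.8 RPKM in the other DMSO libraries.

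The 2 genes of the mitotic chromosome differed from each other. Top2a, the topoisomerase that untangles sister chromatids, was at 26.0 and 23.0 RPKM with DMSO and at 62.0 and 60.5 RPKM with T-5224 (log2 fold change 1.31, SE 0.07, adjusted p = 8.28e-09, limma). Mki67, whose protein Ki-67 coats mitotic chromosomes and is the usual stain for proliferation, was at 2.79 and 3.34 RPKM and then at 4.14 and 4.48 RPKM (0.43, SE 0.11, adjusted p = 0.00275, limma). This was the fourth smallest of the 46 rises with T-5224. In the SB431542 experiment Top2a rose from 161, 159 and 166 RPKM to 196, 193 and 197 RPKM (0.27, SE 0.05, adjusted p = 0.00899, limma). Mki67 was at 64.2, 44.2 and 43.4 RPKM with DMSO and at 52.3, 53.0 and 61.7 RPKM with SB431542 (0.16, SE 0.15, adjusted p = 0.493, limma), so that the highest library of the 6 was DMSO replicate 1.

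Of the 7 genes of the central spindle and cytokinesis, 4 passed 2-fold with T-5224 and 3 rose at the adjusted p with SB431542. Prc1, which bundles the microtubules of the central spindle, was at 13.0 and 12.4 RPKM with DMSO and 28.5 and 27.4 RPKM with T-5224 (log2 fold change 1.10, SE 0.06, adjusted p = 2.26e-08, limma). Ect2, the guanine nucleotide exchange factor that switches on RhoA for the contractile ring, was at 6.49 and 4.76 RPKM and then at 16.9 and 15.8 RPKM (1.47, SE 0.11, adjusted p = 2.87e-07, limma). Kif23 (1.13) and the ring scaffold gene Anln (1.05) were also past 2-fold, and Kif20a (0.89) and Cit (0.80), which encodes citron kinase, were below it. Kif20b was at 2.45 and 2.16 RPKM with DMSO and 3.35 and 3.47 RPKM with T-5224 (0.48, SE 0.10, adjusted p = 0.00124, limma). With SB431542 Ect2 was the fourth largest rise of the 46, from 33.9, 35.0 and 32.5 RPKM to 48.4, 44.0 and 47.7 RPKM (0.46, SE 0.06, adjusted p = 0.00286, limma). Prc1 went from 71.1, 62.8 and 62.8 RPKM to 73.6, 73.5 and 74.2 RPKM (0.17, SE 0.06, adjusted p = 0.0882, limma). Kif20a and Kif20b did not separate the groups: Kif20a was at 87.2, 76.4 and 75.1 RPKM with DMSO and 87.4, 86.7 and 88.4 RPKM with SB431542 (0.14, SE 0.07, adjusted p = 0.177, limma). Kif20b was at 28.6, 20.4 and 20.3 RPKM and then at 25.2, 23.8 and 26.4 RPKM (0.14, SE 0.13, adjusted p = 0.485, limma).

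**Figure D3:**
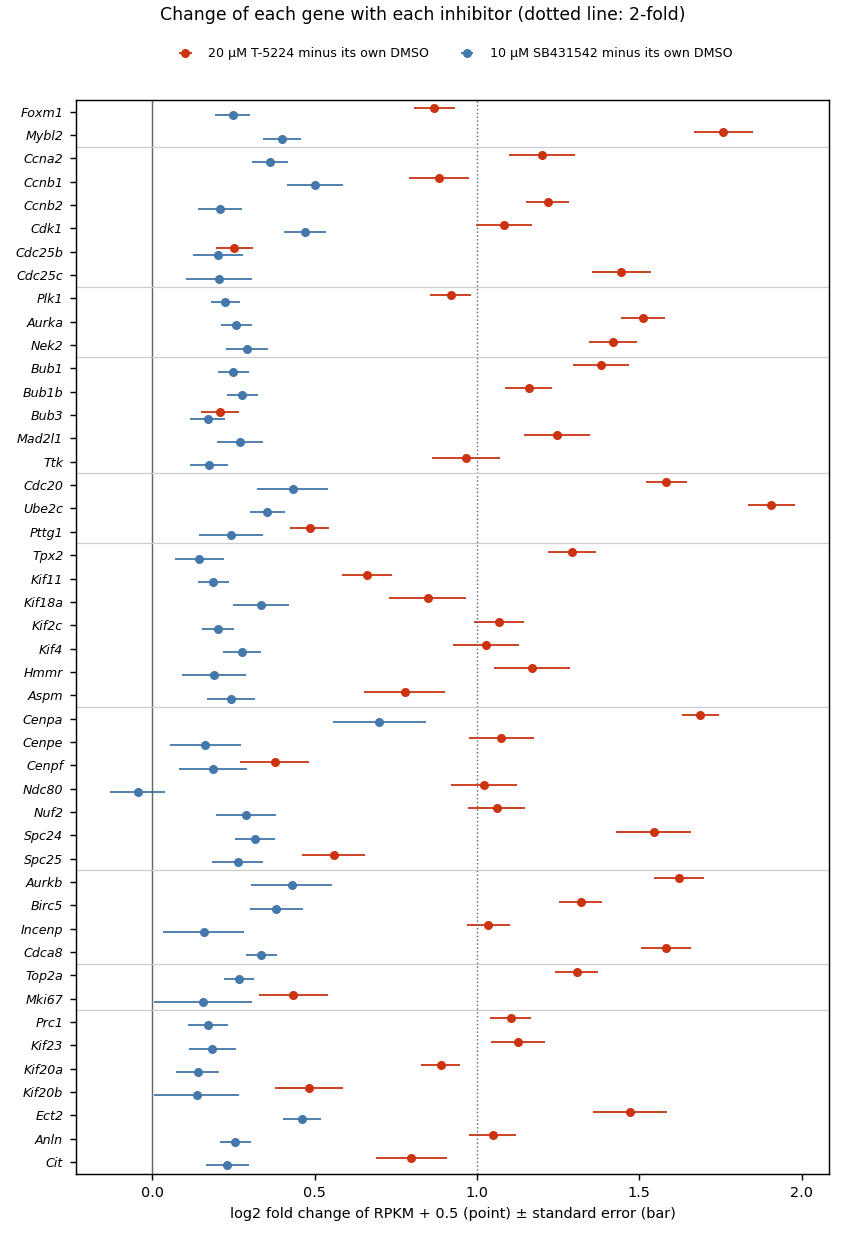
Log2 fold change of RPKM + 0.5 (point) and its standard error (bar) for each gene with T-5224 (red) and SB431542 (blue), each against the DMSO libraries of its own experiment, with a dotted line at 2-fold. The red points run from 0.21 to 1.91, and the blue points from −0.05 to 0.70.

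The rise was smaller in genes with long transcripts, which is given here as a description. The longest annotated transcript was under 2000 bases for 10 of the 46 genes, whose median log2 fold change with T-5224 was 1.48, and 6000 bases or more for 6 genes, whose median was 0.79. Those 6 were also low in level, with mean DMSO values in the T-5224 experiment from 1.42 RPKM for Cit to 3.07 RPKM for Mki67. At such levels the added 0.5 understates a change: for Cenpe the ratio of mean RPKM was 2.43 and the fitted fold 2.11, and for Mki67 1.40 and 1.35. Set against the mean DMSO log2 level, the log2 fold change of the 46 genes with T-5224 had Pearson r 0.11 and Spearman rho 0.21. Over 10542 genes tested these were −0.18 and −0.12. Length and level were not separated, and the part of level was not tested. In between, 21 genes of 2000 to 4000 bases had a median of 1.08 and 9 of 4000 to 6000 bases had 1.05. The medians over all genes tested in these 4 classes ran from 0.19 for the shortest to −0.21 for the longest. Across the 46 genes the log2 fold change with T-5224 went down as log2 length went up (Pearson r −0.39, Spearman rho −0.37), against −0.14 and −0.17 across 10542 genes tested. With SB431542 the values were −0.30 and −0.31, against −0.09 and −0.10 across 10578 genes. These are correlations across genes of the same libraries, which are not independent replicates. In the SB431542 experiment the log2 difference between DMSO replicate 1 and the mean of its partners went up with length across the 46 genes (r 0.54, rho 0.48), against 0.09 for each across all genes. With the trend on length removed from every library, 31 of 46 genes passed 2-fold with T-5224, where 9.83% of all genes rose that far. With SB431542, 26 rose at the adjusted p in that fit, where 10.3% of all genes did.

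**Figure D4:**
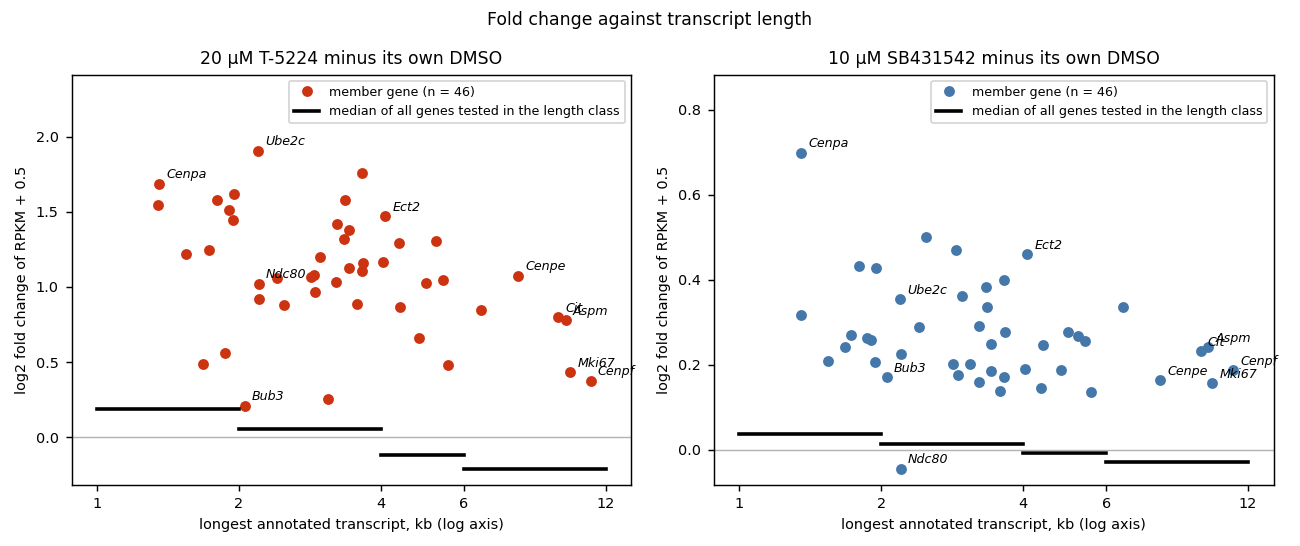
Log2 fold change of RPKM + 0.5 against the longest annotated transcript (kb, log axis) for the 46 genes with T-5224 (left, red) and SB431542 (right, blue), with black lines at the median of all genes tested in each length class; the shortest class is drawn from 1 kb and the longest to 12 kb. With T-5224 the points for transcripts under 2 kb have a median of 1.48 and those of 6 kb or more of 0.79, and the black lines run from 0.19 to −0.21.

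Further genes of mitosis were read from 6 lists with 146 genes, none of them among the 46. With T-5224, 99 of the 140 tested rose at the adjusted p and 14 fell (40.3% and 39.4% of all genes). Past 2-fold, 46 rose and 2 fell (10.4% and 10.6% of all genes). The median change of the 140 was 0.66 on the log2 scale. In the other experiment, 41 of 145 rose and 3 fell with SB431542 (10.2% and 10.0% of all genes), and the median was 0.17. Among other centromere and kinetochore genes 28 of 29 rose with T-5224 (median 1.004), led by Ska1 of the microtubule-binding SKA complex at 1.80, and 1, Cenpt, fell by 0.45 on the log2 scale. Among other spindle and centrosome genes 25 of 33 rose and 2 fell, from Troap at 1.78 to Numa1 at −0.85. Among condensin and cohesin genes 16 of 21 rose and 1 fell, with Ncapg of condensin I at 1.93 and Stag2 of cohesin at −0.29. Among other genes of mitotic entry and exit 16 of 23 rose and 1 fell, with Cks1b at 1.60 and Ccnf at −0.27.

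Of 15 genes in the list of the APC/C itself, 4 rose and 4 fell with T-5224, where 40.3% of all genes rose and 39.4% fell, the median log2 fold change was 0.00, and Anapc13 fell by 1.27. The largest value there was that of Ube2s, an E2 enzyme of the APC/C that is no subunit, at 2.11, an uncertain value, since its mean level with DMSO was 3.06 RPKM here and 251 RPKM in the SB431542 experiment. Of 19 other genes of cytokinesis, mostly of abscission and the actomyosin ring, 10 rose and 5 fell with T-5224 (median 0.17), beside those same shares of all genes, from Arhgef39 at 2.09 to Zfyve26 at −1.30. With SB431542, 1 of these 19 rose, Racgap1 of the central spindle at 0.28, and 3 fell, with Chmp4c at −0.38, where 10.2% of all genes rose and 10.0% fell. The largest rises of the other lists with SB431542 were Espl1, which encodes separase, at 0.49, Mis18a at 0.49, Fam83d at 0.45, Trip13 at 0.52 and Ube2s at 0.27.

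Genes of DNA replication, which are transcribed earlier in the cycle under E2F factors, were set beside these as a list of 46 others. With T-5224, 30 rose and 8 fell, where 40.3% of all genes rose and 39.4% fell. Past 2-fold, 11 rose and 2 fell, where 10.4% and 10.6% of all genes did. The median log2 fold change was 0.54, against 1.08 for the mitosis and cytokinesis genes. The replication licensing gene Cdt1 had the largest rise (2.15) and E2f2 the largest fall (−1.14). With SB431542, 26 rose and 0 fell, where 10.2% of all genes rose and 10.0% fell. The median was 0.25, and Tk1, thymidine kinase, rose most (0.67). The difference between the 2 lists was not tested.

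**Figure D5:**
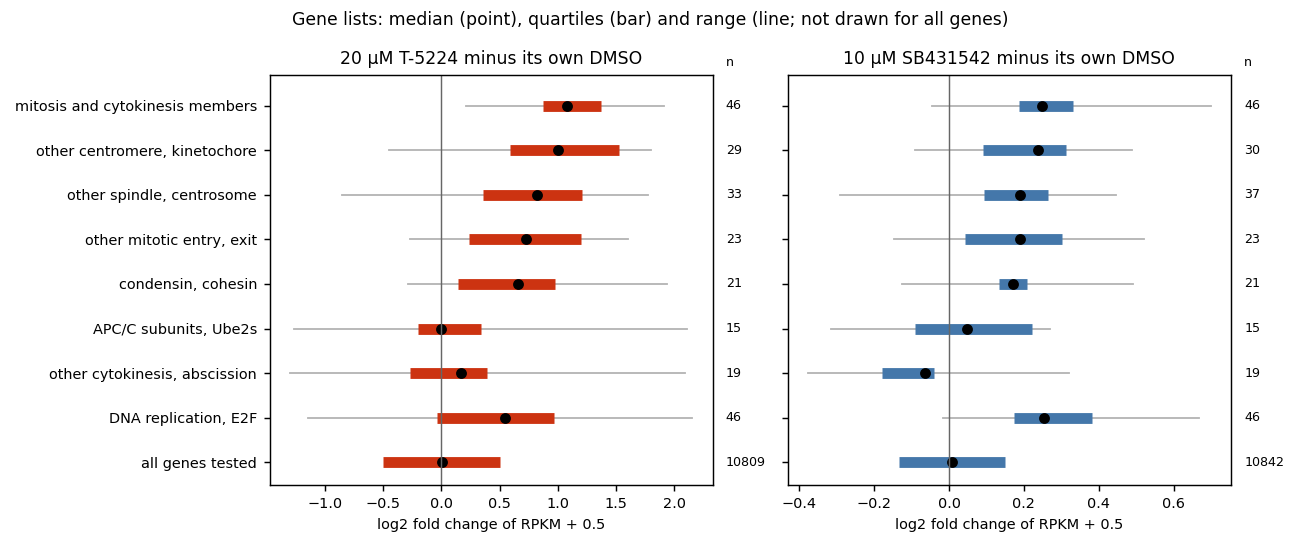
Log2 fold change of RPKM + 0.5 with T-5224 (left) and SB431542 (right) for the 46 mitosis and cytokinesis genes, 6 lists of further mitosis genes, the DNA replication list and all genes tested; points are medians, bars quartiles, lines the full range (not drawn for all genes), and n is the number of genes tested. With T-5224 the medians go from 1.08 in the first row to 0.00 for the APC/C list.

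Markers of cell type were read in the same libraries. Keratinocyte identity was plain: the summed level of 8 basal keratinocyte markers was 14909 to 15662 RPKM with DMSO and 2456 to 2573 RPKM with T-5224, and 10880 to 11084 RPKM with DMSO and 7608 to 8148 RPKM with SB431542. Most of each sum was Krt5, Krt14 and Krt17. With T-5224, 7 of the 8 fell and 1 rose, where 39.4% of all genes fell and 40.3% rose. The log2 fold changes were −3.35 for Krt5, −2.82 for Krt14 and 0.81 for Epcam. With SB431542, 3 fell and 1 rose, where 10.0% of all genes fell and 10.2% rose. The summed level of 4 immune markers went from 16.8 to 18.7 RPKM up to 32.8 to 33.2 RPKM with T-5224. This was Cd68, which rose by 0.89, while Ptprc, the pan-leukocyte marker, and Cd3e were at 0.035 RPKM or less in every library of that experiment. The summed level of 5 fibroblast markers was 2.45 to 2.63 RPKM with DMSO and 3.69 to 4.14 RPKM with SB431542, and 2.54 to 2.58 RPKM with DMSO and 2.60 to 2.82 RPKM with T-5224. Most of it was Dcn, which rose by 0.68 with SB431542 (adjusted p = 0.00178, limma) and by 0.35 with T-5224 (adjusted p = 0.0146, limma). Pdgfra was at 0.134 to 0.179 RPKM with DMSO and 0.067 to 0.131 RPKM with SB431542, and at 0.45 to 0.58 RPKM with DMSO and 0.116 to 0.133 RPKM with T-5224, without overlap. Col1a2 was at 0.190 RPKM or less, and the defining collagen genes Col1a1 and Col3a1 at 0.102 RPKM or less, in every library. Differentiated keratinocyte markers summed to 2.69 to 2.84 RPKM with DMSO and 2.96 to 3.88 RPKM with SB431542. In the T-5224 experiment they summed to 4.02 to 4.08 RPKM with DMSO and 1.82 to 2.15 RPKM with T-5224. Ivl was at 0.638 to 0.940 RPKM with DMSO and 1.007 to 1.316 RPKM with SB431542, while Krt1, Krt10 and Lor overlapped between these groups. Endothelial markers summed to 10.87 to 12.01 RPKM with DMSO and 4.27 to 4.80 RPKM with T-5224, and to 5.25 to 6.58 RPKM with DMSO and 2.62 to 2.84 RPKM with SB431542, nearly all from Pecam1, with Cdh5 at 0.013 RPKM or less. Melanocyte markers summed to 0.116 to 0.426 RPKM. The part of these shifts in the rise of the mitosis genes was not tested. SB431542 lowered the TGFß-induced genes Pmepa1 (−3.62), Skil (−1.47) and Smad7 (−0.80).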

How the data were processed

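The RNA-seq values came as 1 table for each of the 2 experiments. The authors made stranded mRNA libraries, aligned the reads to mm9 with TopHat and deposited RPKM per gene and library from HOMER. No value column went unused (0). Library conditions were taken from the labels, which give the numbers 4 and 5 to the DMSO libraries whose columns, beside T-5224, say 1 and 2. Date-like gene names, 22 and 23 rows, were dropped. Depth is an estimate from the RPKM steps of short genes (up to 250 bases, 99.1% to 100.0% of values within 0.05 of a whole read).

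An inhibitor was set only against DMSO of the same experiment. The fit was limma 3.58.1 (R 4.3.3) with log2(RPKM + 0.5) as the response, moderated variances that follow the mean level, and p-values adjusted by the Benjamini-Hochberg method over genes with a mean of at least 1 RPKM. Fold changes are on that scale, which understates low genes. Calls were read at an adjusted p under 0.05 alone and with a change past 2-fold, the size in the study's methods. Replicates are biological per the study, and p-values measure the spread between 2 or 3 libraries. The 46 genes, further lists, markers and motifs were chosen with earlier results of these data known, so counts are read beside the share of all genes. Every gene is accounted for by role, with each library's value for the 5 largest and 5 smallest changes per experiment and the first gene of each role; of each further list, the largest rise and fall that passed were named. Lengths and positions are from GENCODE on NCBIM37 (mm9), promoters from RefSeq. Alternatives were the pseudocount, the filter, median centring, quantile normalization, no trend, a block on replicate number, a 1.5-fold limit, unadjusted p-values, each library left out, and, added after seeing the data, removal of the trend on length.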

Additional observations from a re-analysis of the deposited data

Results flagged for a closer look

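In 3 genes named beside the mitosis and cytokinesis genes, the libraries of each inhibitor lay on opposite sides of their own DMSO libraries without overlap, and the difference between the experiments was not tested. Separation alone was common: of 10809 genes tested with T-5224, 4879 lay above and 4812 below DMSO without overlap. With SB431542 these were 2590 and 2304 of 10842. The share of all genes on opposite sides in the 2 experiments was not counted. Ccnf, cyclin F, a ubiquitin ligase subunit active in G2, had log2 fold changes of 0.22 with SB431542 and −0.27 with T-5224. E2f2, a transcription factor of S phase genes, had 0.42 and −1.14. Smad7, the feedback inhibitor of TGFß signaling, had −0.80 and 0.34. None of the 46 genes did so. Ccnf and E2f2 had been named as the largest falls of their lists with T-5224, so they are selected genes.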

How the results depend on the processing

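With all libraries in the fit, the count of genes past 2-fold with T-5224 stayed within 26 to 32 of the 46. In those fits 7.24% to 11.5% of all genes rose past 2-fold at the adjusted p. At a 1.5-fold limit the count was 39, where 21.8% of all genes rose. With SB431542 that limit gave 1, and 1.20% of all genes. The median log2 fold change with T-5224 was 1.15 with a pseudocount of 0.1, 1.03 with a pseudocount of 1 and 1.17 with a mean of at least 5 RPKM, which left 37 of the genes; with 1 library left out it lay between 1.02 and 1.15. That filter left 65 further mitosis genes higher and 3 replication genes lower with T-5224, where 43.4% of all genes rose and 38.4% fell, fewer genes being tested. For single genes with T-5224, 539 of 543 repeats kept direction and call, the others being Bub3 in 3 (also with the trend on length removed) and Cenpf in 1.

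With SB431542 the number of the 46 genes that rose at the adjusted p depended on the libraries: with 1 left out it lay between 7 and 43 and the median between 0.24 and 0.28. Further mitosis genes then ranged from 8 to 78 higher and from 0 to 7 lower, and replication genes from 7 to 38 higher. In those fits 2.76% to 19.9% of all genes were higher. At an unadjusted p under 0.05, 36 of the 46 and 75 further genes were higher and 7 of the latter lower, where 19.1% of all genes were higher and 17.0% lower. With a replicate block the counts were 17 of the 46, 18 further genes higher and 1 lower, and 16 replication genes, where 5.28% of all genes were higher and 6.45% lower. Same-numbered libraries did not deviate together (r −0.15, 0.15 and −0.09), so the numbers were not taken as pairs. In the T-5224 experiment the sample labels share no numbers between groups, although its columns number both groups 1 and 2, and no block was fitted there. Ndc80 ranged from −0.11 to 0.034, above 0 without DMSO replicate 1 and, at 0.0032, without SB431542 replicate 2. For single genes, 577 of 690 repeats kept direction and call. The cause was not tested.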

Other observations

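The 2 sets of DMSO libraries, normalized in separate tables and with no test between them, differed in the level of these genes. For all 46, both DMSO libraries of the T-5224 experiment were below all 3 of the SB431542 experiment, which held for 38.1% of the 10462 genes tested in both. The median log2 difference was −2.30 over the 46 genes and 0.01 over all. The ratio of mean RPKM between the SB431542 and the T-5224 experiments' DMSO libraries was 16.5 for Mki67, 16.0 for Ccnb1, 10.9 for Cenpe and 10.3 for Cenpf, but only 1.22 for Pttg1, 1.28 for Cdc25b and 1.42 for Bub3. Genes of DNA replication showed it too, with 46 of 46 lower and a median of −2.01. After T-5224, 40 of the 46 genes were still below all 3 DMSO libraries of the other experiment, which held for 43.2% of all genes tested in both. Summed over the 46 genes, RPKM was 2108 to 2215 with DMSO and 2585 to 2671 with SB431542, and 484 to 530 with DMSO and 1151 to 1185 with T-5224. Both sets carry the same label for line, medium and time, so what differed between the experiments cannot be told apart from the labels.

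Ube2s also differed in level between the experiments. It was at 250.4 to 252 RPKM with DMSO in the SB431542 experiment, and 2.93 to 3.18 RPKM in the T-5224 experiment, rising there to 13.2 to 16.7 RPKM with T-5224. Its values are uncertain for that reason.

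Across the 46 genes the log2 fold changes with the 2 inhibitors, which have no libraries in common, went together (Pearson r 0.50, Spearman rho 0.55), as they did across all 10462 genes tested in both (0.44 and 0.41). Genes of 1 set of libraries are not independent, and this is a description without a test.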
